A study of Mus musculus with 17 samples.

Results

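The macrophage and myeloid genes are 37 genes expressed by tissue macrophages, monocytes and related phagocytes, measured here in bulk RNA of isolated mouse pancreatic islets. The members were fixed as a list of symbols and read from the deposited gene tables, which hold 78239 identifiers for the *Pax4* R192H experiment and 73212 for the *Pax4* βiKO experiment. All 37 were present in both tables. Of these, 35 passed the filter on low counts in the R192H table and were tested, and *Cd163* and *Clec10a*, both surface receptors of macrophages, did not pass. In the βiKO table all 37 were tested.

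The study asked how a homozygous *Pax4* knock-in corresponding to the human R192H variant, or loss of *Pax4* in adult β cells, changes islets under metabolic stress. RNA was sequenced from islets of 17 male mice in 6 groups. The first experiment had 3 wildtype and 3 homozygous R192H mice (labelled HH) on standard chow diet (SCD) at 12 weeks of age, and 3 of each genotype at 16 weeks of age after 4 weeks of high-fat diet (HFD), all littermates on a C57BL6/N background. The second had 2 control mice, carrying floxed *Pax4* alleles without Cre, and 3 *Pax4* βiKO mice, carrying the floxed alleles together with *Pdx1*-driven tamoxifen-inducible Cre. Both of these groups received tamoxifen and were 20 weeks old after 8 weeks of HFD. HFD mice of the first experiment are also older than SCD mice, and βiKO mice of the second differ from controls in carrying Cre as well as in losing *Pax4*, so within each pair the 2 factors cannot be told apart. *Pdx1* is active in β cells and some other pancreatic cells and not in macrophages. *Pax4* itself was listed at 0 in all 17 mice, so its transcript gave no check of the genotypes.

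Islets contain resident macrophages, which lie next to the capillaries and the endocrine cells, take up insulin granule content and cell debris, and present peptides on MHC class II. These cells depend on signalling through the receptor encoded by *Csf1r*, and they carry the surface protein F4/80 (encoded by *Adgre1*), the complement component C1q and lysozyme. Macrophages are a small minority of islet cells, so their transcripts are diluted among those of the endocrine cells.

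Upstream sequence is shown for 5 members whose levels are described in detail later or which belong to the same gene pair or protein complex. RefSeq windows around the transcription start, on assembly GRCm38.p6, were matched for 26 of the 37 members. The printed stretches begin 250 bases before the RefSeq start and stop before the first base that RefSeq or GENCODE places in the gene, or for *Lyz1* at the same distance as for its neighbour *Lyz2*. *Lyz2* and *Lyz1* encode the macrophage and the Paneth-cell lysozyme and lie side by side on chromosome 10. Their stretches are 201 bases long and identical at 74.4% of 203 alignment columns, and capitals mark their longest shared run, 14 bases that lie 106 to 93 bases before each start.
Lyz2, chr10:117282322-117282522, minus strand: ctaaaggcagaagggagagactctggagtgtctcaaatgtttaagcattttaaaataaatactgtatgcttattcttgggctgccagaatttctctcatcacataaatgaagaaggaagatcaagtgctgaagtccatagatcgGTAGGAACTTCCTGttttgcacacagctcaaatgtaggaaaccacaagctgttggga
Lyz1, chr10:117292918-117293118, minus strand: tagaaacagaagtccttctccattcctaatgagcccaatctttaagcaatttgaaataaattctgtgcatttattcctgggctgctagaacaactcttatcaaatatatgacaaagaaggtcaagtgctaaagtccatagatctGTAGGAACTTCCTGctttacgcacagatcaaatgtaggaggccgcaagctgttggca

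*Mrc1*, which encodes the mannose receptor CD206, lies on chromosome 2. Capitals in its stretch mark 3 matches on the opposite strand to GAGGAA, the core letters bound by PU.1, the myeloid transcription factor encoded by the member *Spi1*.
Mrc1, chr2:14229164-14229391, plus strand: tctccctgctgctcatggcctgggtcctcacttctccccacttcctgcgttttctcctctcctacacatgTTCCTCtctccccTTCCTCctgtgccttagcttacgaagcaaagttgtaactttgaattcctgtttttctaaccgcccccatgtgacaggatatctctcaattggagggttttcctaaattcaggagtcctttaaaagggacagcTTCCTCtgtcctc

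*H2-Aa* and *H2-Eb1* encode the α chain of I-A and the β chain of I-E, both parts of MHC class II molecules, and lie on chromosome 17. Capitals mark the letters CTGATTGG, the Y box of class II promoters, which lie 51 to 44 bases before the start of *H2-Aa* and 62 to 55 bases before that of *H2-Eb1*.
H2-Aa, chr17:34287824-34288073, minus strand: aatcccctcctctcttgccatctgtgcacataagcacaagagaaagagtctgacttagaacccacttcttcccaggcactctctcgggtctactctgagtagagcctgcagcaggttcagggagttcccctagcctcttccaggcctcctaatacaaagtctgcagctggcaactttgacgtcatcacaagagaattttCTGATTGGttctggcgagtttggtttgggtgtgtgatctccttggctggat
H2-Eb1, chr17:34305617-34305866, plus strand: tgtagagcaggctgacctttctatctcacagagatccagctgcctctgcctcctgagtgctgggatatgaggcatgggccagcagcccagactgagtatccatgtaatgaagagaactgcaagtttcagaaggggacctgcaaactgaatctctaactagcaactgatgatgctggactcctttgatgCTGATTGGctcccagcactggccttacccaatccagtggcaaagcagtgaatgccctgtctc

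Searched on both strands over the whole window, which runs from 250 bases before to 50 after the start, GAGGAA was found for 14 of the 26 matched members, against 28.3% of all 32851 RefSeq windows. CTGATTGG was found for 2 of the 26, *H2-Aa* and *H2-Eb1*, against 4.1% of all windows. These matches are letters in a reference sequence, and no binding was measured.

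Levels are given as CPM, the usual counts-per-library scale in which the estimated read count of a gene is divided by the total of its library, with totals scaled by the trimmed mean of M values (TMM), and are comparable only within a table. The totals were 24268157 to 42679645 counts per mouse in the R192H table and 28618835 to 31887537 in the βiKO table. A count of 3 corresponds in the R192H table to 0.0724 to 0.126 CPM, a limit that covers counting error only. Islet macrophage transcripts were detected in each mouse, with at least 2.97 CPM of *Adgre1*, 4.75 CPM of *Csf1r* and 28.7 CPM of *C1qa* in the lowest of the 17. The summed level of 12 neutrophil markers did not exceed 6.37 CPM and that of 19 T- and NK-cell markers did not exceed 10.2 CPM in any mouse. Of the 37 members, 19 were above 1 CPM in all 12 mice of the R192H table and 29 in all 5 mice of the βiKO table. Because the RNA is bulk, fewer macrophages and less of a transcript per macrophage cannot be told apart at any result that follows.

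Per kilobase of exon, *C1qa*, *Cd74* (the invariant chain of MHC class II), *Ctss* (cathepsin S, which trims the invariant chain), *Lyz2* and *H2-Eb1* led the list in several groups. In wildtype SCD mice the highest mean levels per kilobase were 36.2 CPM for *Cd74* (29.2 to 43.1), 34.4 for *C1qa* (27.6 to 39.0), 31.1 for *Lyz2* (20.9 to 46.6) and 23.0 for *Ctss* (17.5 to 27.9). The ranges of *Cd74*, *C1qa* and *Lyz2* overlapped, so the order among these was within the spread between mice. *Ctss* overlapped *C1qa* and *Lyz2* and lay below *Cd74* without overlap. In R192H SCD mice *C1qa* was highest at 31.0 CPM per kilobase (29.0 to 32.8), above *Cd74* at 23.0 (19.8 to 26.7), without overlap. *Lyz2* there was at 8.77 CPM per kilobase (7.46 to 10.6), and its range overlapped those of *H2-Eb1*, *H2-Ab1* and *H2-Aa*. In wildtype HFD mice *C1qa* was again highest at 39.9 CPM per kilobase (36 to 46.3), and *Lyz2* was sixth at 6.62 (5.75 to 7.98). In the control and βiKO mice *Lyz2* was at 23.1 and 29.7 CPM per kilobase.

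The members as a whole stood higher in wildtype SCD islets than in the other groups of the same table. The summed level of the 37 members was 413, 315 and 364 CPM in the wildtype SCD mice and 251, 218 and 225 CPM in the R192H SCD mice. It was 231, 248 and 241 CPM in the wildtype HFD mice and 247, 303 and 197 CPM in the R192H HFD mice. Each of the 3 wildtype SCD mice was above each of the other 9, and the remaining groups overlapped one another. In the βiKO table the sum was 602 and 552 CPM in the controls and 548, 608 and 888 CPM in the βiKO mice, and the groups overlapped.

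**Figure D1:**
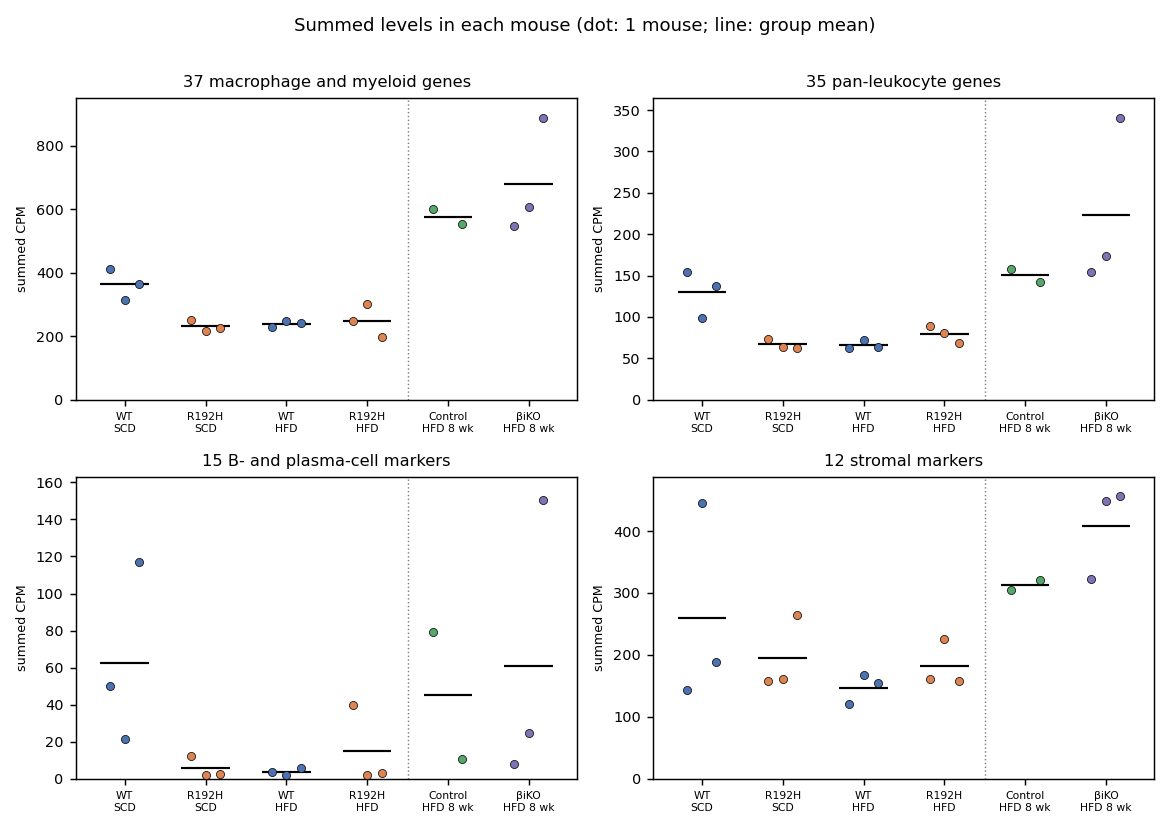
Summed CPM per mouse for the 37 macrophage and myeloid genes, 35 pan-leukocyte genes, 15 B- and plasma-cell markers and 12 stromal markers. Each dot is a mouse and each line a group mean, and the dotted line separates the 2 separately normalized tables. The 3 wildtype SCD mice lie above the other 9 mice of their table for the member and pan-leukocyte sums, and 1 R192H HFD mouse reaches 39.9 CPM for the B-cell sum.

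In the first comparison, R192H against wildtype on SCD, which asks what the variant changes before metabolic stress, most members had lower fitted levels in R192H islets and none was called by edgeR. The log2 fold change was below 0 for 34 of the 35 members tested, against 50.7% of all 19137 genes tested below 0 and 49.3% above, and its median was −0.65, against −0.0038 over all genes. With edgeR's quasi-likelihood test and Benjamini-Hochberg adjustment 0 of 35 were called, as were 0% of all genes, where a call needs an adjusted p under 0.05 and an absolute log2 fold change over 0.5. At an unadjusted p under 0.05, 17 members were lower and 0 higher, against 2.19% of all genes lower and 1.1% higher. In 18 members each R192H mouse was below each wildtype mouse, against 4.22% of all genes, and in 1, *Trem2*, each was above, against 3.62%. DESeq2 called 1 member, *Lyz2*, against 0.102% of all genes called lower and 0.0242% called higher by that tool. In the same comparison the median log2 fold change was −1.18 over 33 tested pan-leukocyte genes and −4.59 over 12 tested B- and plasma-cell markers, all of them below 0, and their part in the result was not tested.

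In the second comparison, HFD at 16 weeks against SCD at 12 weeks in wildtype mice, *Lyz2* and *H2-Aa* were called lower and no member was called higher. Both calls depended on the setting. That of *H2-Aa* ended when any mouse of these groups was left out, and that of *Lyz2* without the third wildtype HFD mouse. Neither was called with only the groups compared in the model. The 2 members called compare with 0.167% of all genes called lower. The log2 fold change was below 0 for 34 of 35 members, against 48.9% of all genes, with a median of −0.71, against 0.01. At an unadjusted p under 0.05, 16 were lower and 0 higher, against 8.37% of all genes lower and 6.86% higher. In 22 members each HFD mouse was below each SCD mouse, against 9.46% of all genes, and in 0 each was above, against 8.47%. DESeq2 called 7 lower, *Lyz2*, *H2-Aa*, *Mrc1*, *Csf1r*, *Ctss*, *Fcgr2b* and *Il1b*, against 2.84% of all genes in either direction, 1.9% lower and 0.946% higher. The first and second comparisons share the 3 wildtype SCD mice, so they are not independent of each other. In the second the median log2 fold change was −3.82 over 12 tested B- and plasma-cell markers, −3.73 over 5 tested lymph node stroma markers and −1.44 over 12 stromal markers. It was 0.17 over 27 acinar and 0.29 over 17 islet endocrine markers. The part of these cells in the result was not tested.

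**Figure D2:**
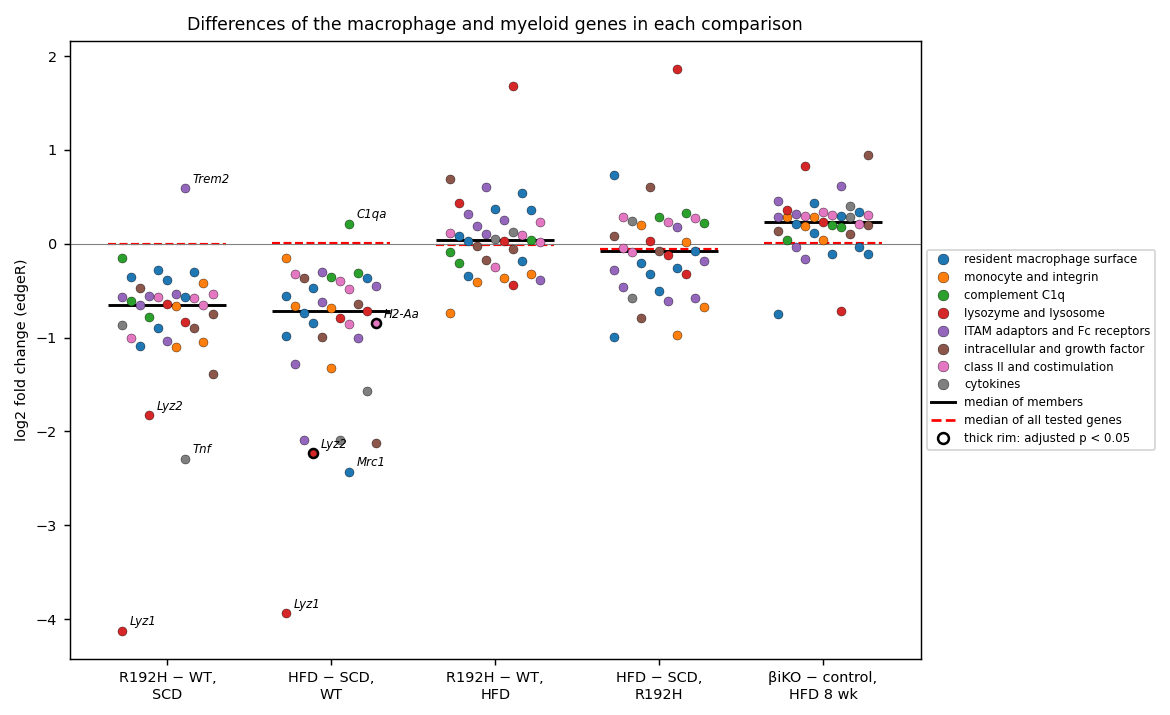
log2 fold change (edgeR) of each tested member in 5 comparisons, with 1 dot per gene coloured by role, the member median as a black line and the median of all tested genes as a red dashed line. In the 2 comparisons that contain the wildtype SCD mice the member medians are −0.65 and −0.71, in the other 3 they lie between −0.08 and 0.23, and the thick rims mark *Lyz2* and *H2-Aa*.

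*Lyz2*, the lysozyme gene of macrophages and neutrophils, set the wildtype SCD mice furthest apart among the members. The measure is the ratio of their lowest value to the highest of the other 9 mice of the table. Log2 differences were larger for *Lyz1* and *Tnf* in R192H on SCD, and for *Lyz1* and *Mrc1* in HFD in wildtype mice. The *Lyz2* level was 61.3, 27.5 and 33.8 CPM in wildtype SCD mice and 10.9, 9.82 and 13.9 CPM in R192H SCD mice. It was 7.57, 10.5 and 8.07 CPM in wildtype HFD mice and 13.7, 14.6 and 7.13 CPM in R192H HFD mice. The wildtype SCD mice lay above all 9 others, and the other 3 groups overlapped. The log2 difference between R192H and wildtype on SCD was −1.83 (SE 0.31), a 3.55-fold difference, with an adjusted p of 0.355 in edgeR's quasi-likelihood test and 8.5e-06 in DESeq2. Between HFD and SCD in wildtype mice *Lyz2* fell by 2.23 on the log2 scale (SE 0.31), or 4.69-fold, with an adjusted p of 0.0112 in edgeR's quasi-likelihood test. Without the third wildtype HFD mouse the difference was −2.18 with an adjusted p of 0.0897, and with only these 2 groups in the model it was −2.23 with an adjusted p of 0.0584. The genotype effect on *Lyz2* differed between the diets by 2.26 on the log2 scale (SE 0.43), with an adjusted p of 0.0576 in edgeR's quasi-likelihood test of the interaction and 5.46e-05 in DESeq2. In the βiKO table it was at 37.1 and 23.8 CPM in controls and at 27.6, 38.6 and 51.2 CPM in βiKO mice, with a log2 difference of 0.36 (SE 0.27).

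*Lyz2* also made up a larger share of the members' reads in wildtype SCD mice. Its reads were 14.9%, 8.73% and 9.29% of all reads of the 37 members in wildtype SCD mice and 3.28% to 6.19% in the other 9 mice of the table. With exact binomial (Clopper-Pearson) 95% intervals, which cover counting error only, the lowest wildtype SCD share was 8.22% to 9.25% and the highest share elsewhere 5.59% to 6.83%. In the βiKO table the share was 4.31% to 6.34%. The share of *C1qa*, which falls when other members are higher in the sum, was 9.28%, 9.09% and 11.1% of member reads in wildtype SCD mice and 12.9% to 20.0% in the other 9, while its CPM overlapped between the wildtype SCD mice and each other group.

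**Figure D3:**
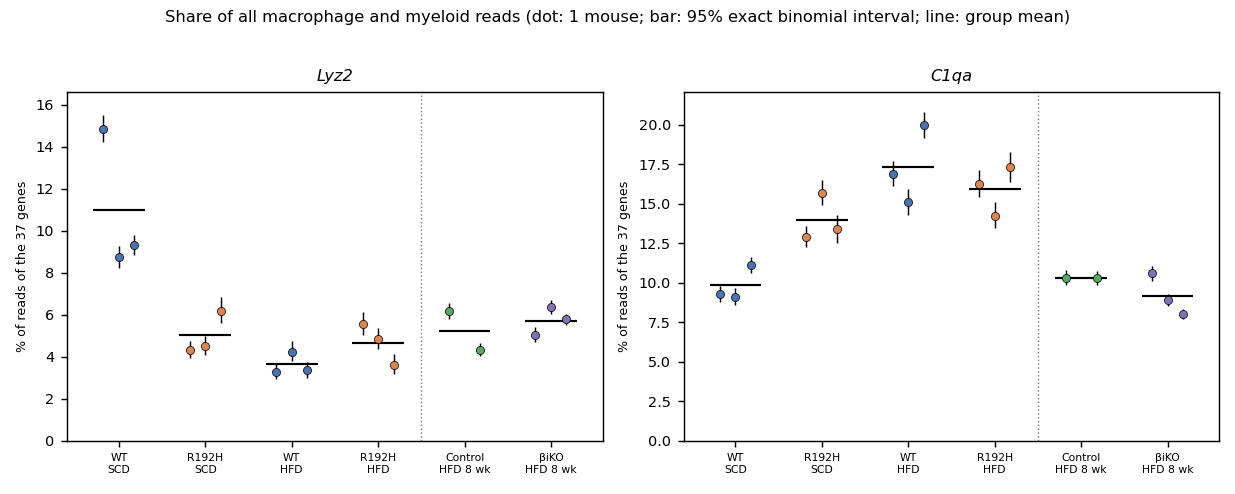
Reads of *Lyz2* and of *C1qa* as a percentage of all reads of the 37 members in each mouse, with 95% exact binomial intervals as bars and group means as lines. In the R192H table the 3 wildtype SCD mice have the 3 highest *Lyz2* shares, 8.73% to 14.9%, and the 3 lowest *C1qa* shares.

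The 2 lysozyme genes share 100-base stretches in 1.97% of the *Lyz2* transcript, so few reads could be assigned to either. *Lyz1* was at 0.438, 0.107 and 1.71 CPM in wildtype SCD mice and at 0.0508, 0 and 0.0763 CPM in R192H SCD mice, values at or under the level of 3 counts. In the remaining 6 mice of the table it was at 0 in 4. In the βiKO table it was at 0.446 and 2.92 CPM in controls and at 0.0347, 0.212 and 2.82 CPM in βiKO mice. In the R192H table most of these are a few counts per library, and in the βiKO table the mice of 1 group lay far apart, so no fold is given. The other 2 lysosomal members are *Ctss* and *Laptm5*, a lysosomal membrane protein of haematopoietic cells. *Ctss* was at 37.9, 23.8 and 31.9 CPM in wildtype SCD mice, 22.4, 17.7 and 19.8 in R192H SCD mice, 16.9, 21.0 and 16.0 in wildtype HFD mice and 15.5, 24 and 15.5 in R192H HFD mice. Its log2 difference was −0.64 (SE 0.20) for R192H on SCD and −0.80 (SE 0.20) for HFD in wildtype mice, and neither was called by edgeR. *Laptm5* was at 1.99 to 2.92 CPM in wildtype SCD mice and 0.833 to 1.74 CPM in the other 9 mice of the table, without overlap.

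Of the surface markers that define resident macrophages none was called by edgeR. *Adgre1* was at 5.90, 6.52 and 4.39 CPM in wildtype SCD mice, 3.61, 4.74 and 5.5 in R192H SCD mice, 4.05, 4.54 and 4.45 in wildtype HFD mice and 2.97, 5.54 and 3.05 in R192H HFD mice. These groups overlapped, and the log2 difference was −0.28 (SE 0.26) for R192H on SCD and −0.36 (SE 0.26) for HFD in wildtype mice. *Csf1r*, the receptor for the macrophage growth factors CSF1 and IL-34, was at 13.0, 9.41 and 6.37 CPM in wildtype SCD mice, 6.13, 6.79 and 6.49 in R192H SCD mice, 6.08, 4.95 and 4.90 in wildtype HFD mice and 6.51, 5.58 and 4.75 in R192H HFD mice. The wildtype SCD mice lay above the wildtype HFD mice for *Csf1r* and overlapped the R192H SCD mice, with log2 differences of −0.85 (SE 0.23, adjusted p = 0.113 by edgeR and 0.0327 by DESeq2) and −0.56 (SE 0.23). *Cd68*, an endosomal glycoprotein of macrophages, was at 0.536 to 1.35 CPM in wildtype SCD mice, 0.458 to 1.12 in R192H SCD mice, 0.409 to 0.587 in wildtype HFD mice and 0.494 to 0.797 in R192H HFD mice, and neither comparison with the wildtype SCD mice separated the groups. Its log2 difference for R192H on SCD, −0.30 (SE 0.47), was 0.04 without the first wildtype SCD mouse, and that for HFD in wildtype mice was −0.99 (SE 0.49).

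*Mrc1*, whose upstream stretch is printed above, was at 2.56, 6.09 and 2.08 CPM in wildtype SCD mice and at 0.507, 1.06 and 0.443 CPM in wildtype HFD mice. The groups did not overlap, and the log2 difference of −2.43 (SE 0.48) had an adjusted p of 0.0506 in edgeR's quasi-likelihood test and 0.000174 in DESeq2. In R192H mice it was at 1.37, 2.24 and 2.18 CPM on SCD and 0.859, 1.34 and 0.709 CPM on HFD, with a log2 difference of −0.996 (SE 0.47). The second wildtype SCD mouse, highest for *Mrc1*, was also highest of its group for the macrophage receptors *Cd163* (1.10 CPM against 0.121 and 0.135) and *Clec10a* (0.805 against 0.0337 and 0.145). The same mouse had the highest summed stromal markers of its table, 445 CPM against 120 to 264 in the other 11 mice, and their part in the result was not tested. Without that mouse the log2 difference of *Mrc1* between the diets in wildtype mice was −1.80, with an edgeR adjusted p of 0.16. The remaining resident markers were *Cx3cr1*, the fractalkine receptor, *Mpeg1*, a pore-forming protein of phagosomes, and *Ms4a7*. For R192H on SCD the groups overlapped for *Cx3cr1* (−0.39, SE 0.30) and *Mpeg1* (−0.35, SE 0.20). *Ms4a7* was at 2.29 to 3.71 CPM in wildtype SCD mice against 1.11 to 1.75 in R192H SCD mice, without overlap, and reached 3.94 CPM in 1 R192H HFD mouse.

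**Figure D4:**
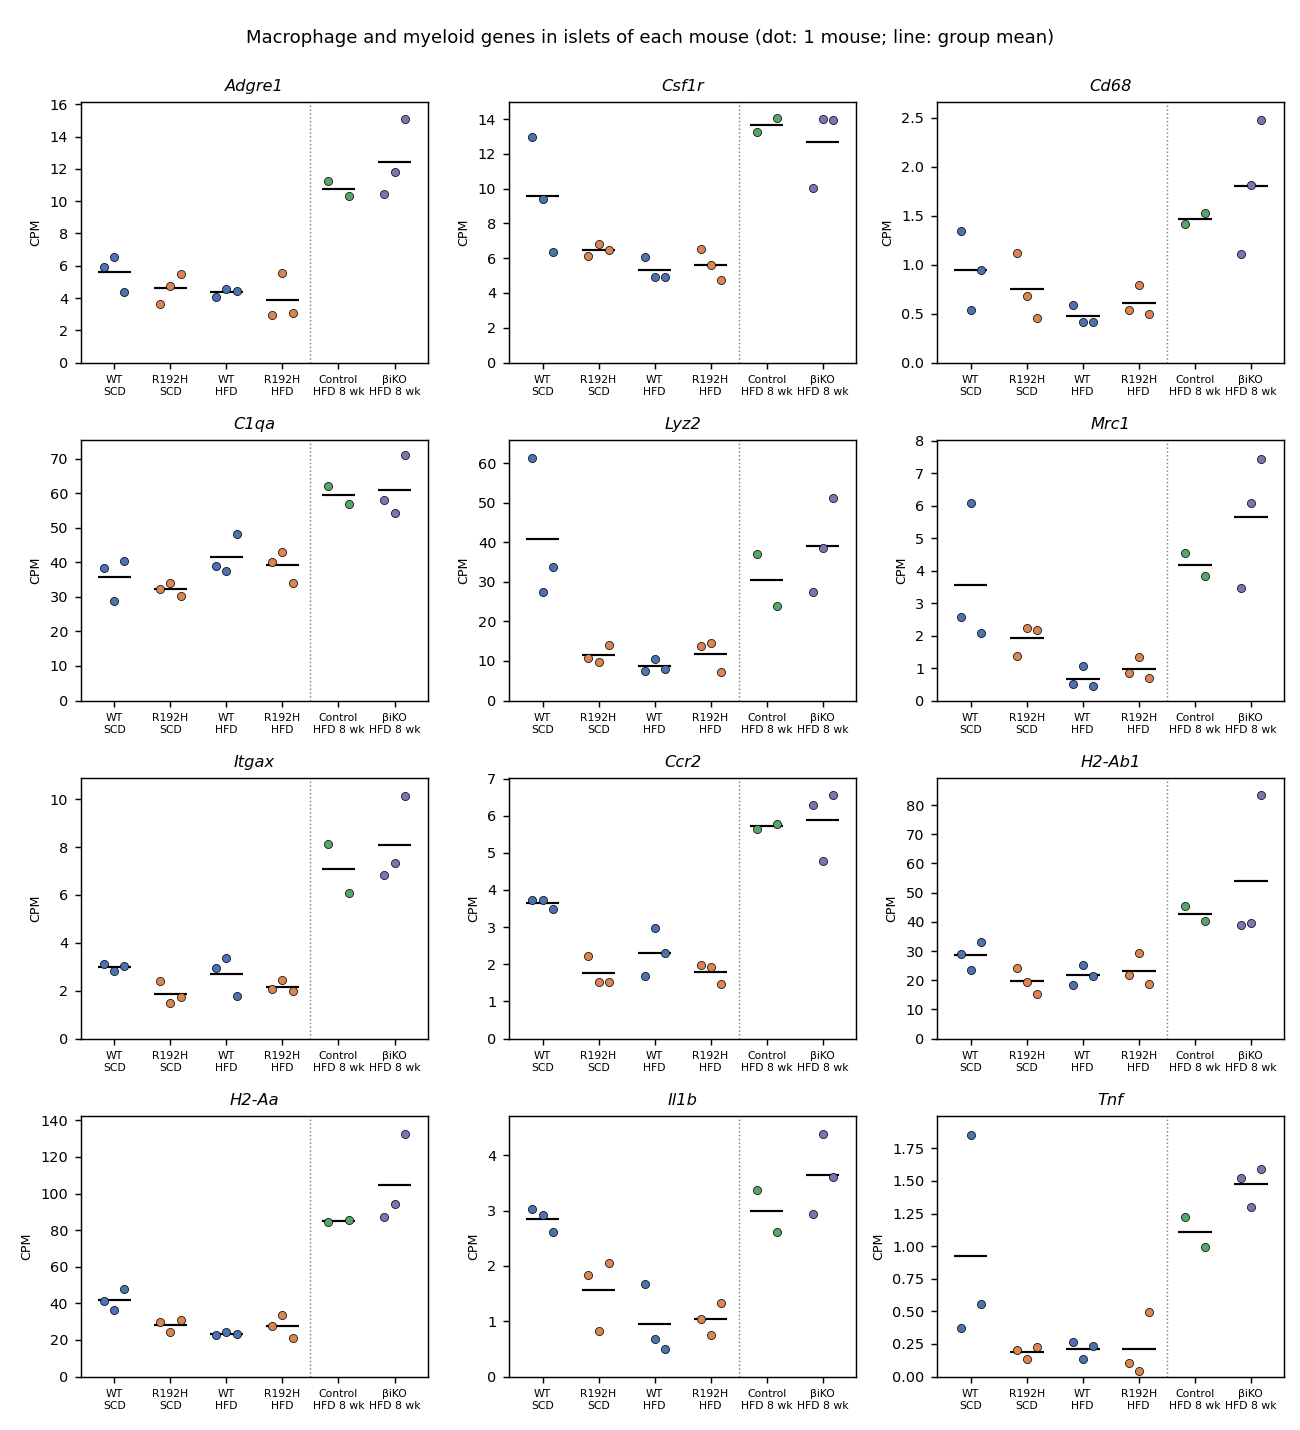
CPM of 12 members in each mouse, with 1 dot per mouse, group means as lines and a dotted line between the 2 separately normalized tables. The 3 wildtype SCD mice lie above all 9 other mice of their table for *Lyz2*, *Ccr2*, *H2-Aa* and *Il1b*, and overlap each of the other groups for *Adgre1* and *C1qa*.

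None of the 3 chains of C1q, which macrophages make and which opens the classical complement pathway, was called. Differences between the chains were not tested. *C1qa* was at 38.3, 28.7 and 40.5 CPM in wildtype SCD mice, 32.4, 34.1 and 30.1 in R192H SCD mice, 39.0, 37.4 and 48.1 in wildtype HFD mice and 40.2, 43.1 and 34.1 in R192H HFD mice. The wildtype SCD mice overlapped each of the other groups for *C1qa*. It was the 1 member with a log2 difference above 0 for HFD in wildtype mice, 0.21 (SE 0.15), and its difference for R192H on SCD was −0.15 (SE 0.15). *C1qb* and *C1qc* were lower in each R192H SCD mouse than in each wildtype SCD mouse, with log2 differences of −0.61 (SE 0.16) and −0.78 (SE 0.24), not called. For HFD in wildtype mice these were −0.31 (SE 0.16) and −0.35 (SE 0.24).

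Among monocyte receptors and integrins, *Ccr2*, the receptor that draws monocytes into tissue, was at 3.74, 3.73 and 3.48 CPM in wildtype SCD mice and 2.21, 1.53 and 1.53 in R192H SCD mice. In HFD mice it was at 1.68, 2.97 and 2.29 CPM in wildtype and 1.97, 1.93 and 1.48 in R192H. The wildtype SCD mice were above all others, with a log2 difference of −1.05 (SE 0.27, edgeR adjusted p = 0.927) for R192H on SCD and −0.66 (SE 0.27) for HFD in wildtype mice. *Itgax*, the integrin CD11c of dendritic cells and of islet macrophages, was at 3.10, 2.82 and 3.04 CPM in wildtype SCD mice and 2.39, 1.5 and 1.76 in R192H SCD mice, a log2 difference of −0.66 (SE 0.28). In HFD mice it was at 2.96, 3.38 and 1.77 CPM in wildtype and 2.08, 2.43 and 1.97 in R192H, overlapping the SCD mice of the same genotype. Its log2 difference for HFD in wildtype mice, −0.15 (SE 0.27), was 0.09 without the third wildtype HFD mouse. *Itgam*, the integrin CD11b, shares 71% of its transcript's 100-base stretches with the overlapping gene model *Gm49368*, so its level, 0 to 1.26 CPM in the R192H table, is uncertain. *Cd14*, the co-receptor for lipopolysaccharide, was at 0.573 to 2.25 CPM in that table.

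The adaptors and Fc receptors carry signals of immune complexes and lipids into the cell. *Tyrobp* and *Fcer1g*, the 2 adaptors, were at 3.26 to 4.95 and 1.29 to 3.20 CPM in wildtype SCD mice and at 1.55 to 3.69 and 0.507 to 1.83 CPM in the other 9 mice of the table. *Trem2*, a lipid receptor that signals through *Tyrobp*, was the exception to the direction of the list on SCD, at 0.539, 0.536 and 0.410 CPM in wildtype and 0.966, 0.658 and 0.611 CPM in R192H mice. The *Trem2* groups did not overlap and the log2 difference was 0.59 (SE 0.50), not called. *Fcgr2b*, the inhibitory Fc receptor, also made by B cells, was at 0.910, 2.52 and 1.04 CPM in wildtype SCD mice and 0.453, 0.102 and 0.469 in wildtype HFD mice, a log2 difference of −2.09 (SE 0.61, adjusted p = 0.139 by edgeR and 0.035 by DESeq2). *Fcgr1* and *Fcgr3*, the activating receptors, had log2 differences of −1.29 (SE 0.55) and −0.45 (SE 0.29) in the same comparison. *Fcgr2b* and *Fcgr3* share short stretches with each other, 2.41% and 3.53% of their transcripts, and *Csf2rb* shares 6.96% with *Csf2rb2*, which leaves a small part of their counts uncertain.

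The members of the role labelled intracellular and growth factor were low except *Cybb*, the catalytic subunit of the phagocyte NADPH oxidase. *Cybb* was at 8.29, 9.36 and 7.89 CPM in wildtype SCD mice and 3.66 to 6.25 CPM in the other 9 mice of the table, without overlap. Its log2 difference was −0.75 (SE 0.22) for R192H on SCD and −0.64 (SE 0.22) for HFD in wildtype mice, neither called. *Spi1* was at 0.483 to 1.58 CPM in wildtype SCD mice and 0.369 to 0.661 CPM in R192H SCD mice, and the groups overlapped. *Csf2rb*, the shared β chain of the GM-CSF, IL-3 and IL-5 receptors, was at 0.700 to 1.07 CPM in wildtype SCD mice and 0.0308 to 0.395 CPM in the other 9. *Aif1*, the actin-binding protein IBA1, overlapped between all groups of the table, at 0.658 to 2.06 CPM.

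The MHC class II genes *Cd74*, *H2-Eb1*, *H2-Ab1* and *H2-Aa* were among the 7 members with the highest mean level per kilobase in each of the 6 groups. *H2-Aa* was at 41.3, 36.6 and 48.0 CPM in wildtype SCD mice, 29.7, 24.2 and 31.0 in R192H SCD mice, 22.8, 24.1 and 23.2 in wildtype HFD mice and 27.6, 33.7 and 21.1 in R192H HFD mice. Each wildtype SCD mouse was above each other mouse of the table. For HFD in wildtype mice *H2-Aa* fell by 0.85 on the log2 scale (SE 0.17), or 1.80-fold, with an adjusted p of 0.0499 in edgeR's quasi-likelihood test. Leaving out any 1 of the 6 mice gave −0.72 to −0.94 and ended the call, with an edgeR adjusted p of 0.0585, 0.0609 and 0.159 without wildtype SCD mouse 1, 2 and 3 and of 0.0761, 0.126 and 0.229 without wildtype HFD mouse 1, 2 and 3. *H2-Ab1*, its partner chain, was at 28.8, 23.5 and 33.2 CPM in wildtype SCD mice, 24.1, 19.5 and 15.2 in R192H SCD mice, 18.5, 25.2 and 21.4 in wildtype HFD mice and 21.8, 29.2 and 18.6 in R192H HFD mice, and all these groups overlapped. Its log2 difference was −0.54 (SE 0.21) for R192H on SCD and −0.39 (SE 0.20) for HFD in wildtype mice. *Cd74* and *H2-Eb1* were lower in each R192H SCD mouse than in each wildtype SCD mouse, with log2 differences of −0.65 (SE 0.20) and −0.58 (SE 0.16), not called. *Cd86*, a costimulatory ligand for T cells, was at 0.644 to 1.79 CPM in wildtype SCD mice and 0.458 to 0.992 CPM in R192H SCD mice.

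Of the cytokines, *Il1b* was at 3.03, 2.92 and 2.61 CPM in wildtype SCD mice and 1.83, 0.816 and 2.06 in R192H SCD mice. It was at 1.68, 0.682 and 0.495 CPM in wildtype HFD mice and 1.04, 0.755 and 1.33 in R192H HFD mice, so the wildtype SCD mice were above all 9 others. The log2 difference for HFD in wildtype mice was −1.57 (SE 0.46, adjusted p = 0.135 by edgeR and 0.0324 by DESeq2). Without the first wildtype HFD mouse it was −2.28 with an edgeR adjusted p of 0.0447. *Tnf* was at 0.371, 1.85 and 0.555 CPM in wildtype SCD mice, 0.203, 0.132 and 0.229 in R192H SCD mice, 0.267, 0.136 and 0.234 in wildtype HFD mice and 0.107, 0.042 and 0.494 in R192H HFD mice, a few counts per library in most of them. Its groups did not overlap on SCD, with a log2 difference of −2.29 (SE 0.83), not called, which was −1.30 without the second wildtype SCD mouse.

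Counted over the list after these values had been seen, 9 of the 35 tested members had each wildtype SCD mouse above each of the other 9 mice of the table, against 1.19% of all genes, and 0 had each below, against 0.334%. The 9 were *Lyz2*, *Laptm5*, *C1qb*, *Ccr2*, *Fcgr2b*, *Cybb*, *Csf2rb*, *H2-Aa* and *Il1b*, from 7 of the 8 roles into which the list was divided. The role without any was that of the resident macrophage surface markers, of which 7 were tested. As a ratio the gap was widest for *Lyz2*, whose lowest wildtype SCD value was 27.5 CPM and whose highest value elsewhere was 14.6 CPM, and narrowest for *C1qb*, at 7.48 and 7.37 CPM.

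Markers of B cells and pan-leukocyte genes were also high in the wildtype SCD mice. The summed level of 15 B- and plasma-cell markers was 49.8, 21.3 and 117 CPM in wildtype SCD mice, 12.4, 1.74 and 2.40 in R192H SCD mice, 3.36, 1.84 and 5.73 in wildtype HFD mice and 39.9, 2.18 and 2.90 in R192H HFD mice. *Ms4a1*, which encodes the B-cell protein CD20, was at 6.70, 2.23 and 6.25 CPM in wildtype SCD mice and at 0 to 0.208 CPM in 8 of the other 9, and was at 4.01 CPM in the first R192H HFD mouse. Of these 15 markers 1, 0 and 0 were at 0 in the wildtype SCD mice and 3 to 8 in each of those 8. B cells also express MHC class II, *Fcgr2b*, *Cd86* and *Laptm5*, while lysozyme and C1q are products of phagocytes. The first R192H HFD mouse, with a B-cell sum inside the wildtype SCD range, had 13.7 CPM of *Lyz2* and 27.6 CPM of *H2-Aa*, both within the range of the other R192H HFD mice. Its *Ptprc* was at 7.41 CPM, the highest of its group, against 10.9 to 20.8 CPM in the wildtype SCD mice. This is 1 mouse, and the part of B cells in these values was not tested. Among 35 pan-leukocyte and cytoskeletal genes, of which 33 were tested, 4 fell for HFD in wildtype mice by edgeR (10 by DESeq2), against 0.167% and 1.9% of all genes lower, and the 3 with the lowest p were *Ptprc* (the leukocyte antigen CD45, −1.90, SE 0.26), *Plek* (−1.40, SE 0.20) and *Cd53* (−2.35, SE 0.41). Their median was −1.15 in that comparison and −1.18 for R192H on SCD, with all 33 below 0 in both, and on SCD 0 were called by edgeR and 6 lower by DESeq2, against 0% and 0.102% of all genes. For HFD in R192H mice 1 of them, *Lyn*, rose (0.81, SE 0.15) and 1, *Lilrb4a*, fell (−1.32, SE 0.42), beside 9.75% of all genes higher and 5.91% lower. The part of other leukocytes in the differences of the macrophage and myeloid genes was not tested.

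On HFD no member was called between the genotypes. The third comparison, R192H against wildtype after 4 weeks of HFD, gave 0 of 35 members called, against 2.28% of all genes (1.46% higher and 0.82% lower), with 21 log2 fold changes above and 14 below 0, against 48.6% of all genes above, a median of 0.04 and a range from −0.74 to 1.68. At an unadjusted p under 0.05 there were 0 members, against 6.98% of all genes lower and 8.91% higher. DESeq2 called 0, against 7.06% of all genes it tested, 4.6% higher and 2.46% lower. DESeq2 gave no adjusted p for several low members in this comparison, *Spi1* and *Tnf* among them. Each R192H mouse was above each wildtype mouse in 1 member, *Spi1*, against 13% of all genes, and below in 0, against 9.89%. *Lyz2* differed by 0.44 (SE 0.31) and *H2-Aa* by 0.23 (SE 0.17). Of 27 acinar cell markers 8 were called higher in R192H HFD islets by edgeR and 23 by DESeq2, and the first R192H HFD mouse had the highest sum of its table. With an acinar covariate, the mean log2 level of these markers, edgeR called 0% of all genes. The distance between the members and all genes here depends on that choice. The second R192H HFD mouse was highest of its group in 25 of the 35 members and the third was lowest in 26, so the mice of this group differed from each other across the list.

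Between SCD and HFD in R192H mice, where 15.7% of all genes were called, 9.75% higher and 5.91% lower, 0 of 35 members were called. With the mean log2 level of the acinar markers as a covariate the share of all genes called was 0.528%, so the distance between the members and all genes depends on that choice. The log2 fold changes were above 0 for 15 and below 0 for 20, against 53.6% of all genes below, with a median of −0.08 and a range from −0.996 to 1.86. At an unadjusted p under 0.05 there were 0 members, against 15.4% of all genes lower and 17% higher. DESeq2 called 0, against 19% of all genes, 8.2% lower and 10.8% higher. In 2 members each HFD mouse was above each SCD mouse and in 2 each was below, against 21.3% and 20.6% of all genes. *Lyz2* differed by 0.03 (SE 0.31) and *H2-Aa* by −0.04 (SE 0.17). The test of whether the genotype effect differed between the diets called 0 of 35 members with edgeR, against 0.131% of all genes (0.0888% higher). DESeq2 called 1, *Lyz2*, against 1.65% of all genes and 1.12% called higher. The difference was above 0 for 34 of the 35, against 49.2% of all genes, and 11 had an unadjusted p under 0.05, against 6.84% of all genes higher and 4.38% lower. This test contains the same wildtype SCD mice as the first and second comparisons and is not independent of them. The median was 0.66 over the members, 1.31 over 33 tested pan-leukocyte genes and 6.89 over 12 tested B- and plasma-cell markers. It was −0.09 over 6 tested myeloid growth factors and receptors. The part of other cells was not tested. *H2-Aa* had a difference of 0.80 (SE 0.23, adjusted p = 0.2 by edgeR and 0.0825 by DESeq2).

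In *Pax4* βiKO against control islets after 8 weeks of HFD no member was called by edgeR, against 0.0893% of all genes. DESeq2 called 0, against 2.16% of all genes, 1.29% lower and 0.867% higher. The log2 fold change was above 0 for 30 of 37 members, against 51.5% of all genes, with a median of 0.23 and a range from −0.75 to 0.94. It was above 0 for 34 of 35 pan-leukocyte genes (median 0.62) and for all 7 tested T- and NK-cell markers (median 1.58). All 27 acinar markers were below 0 (median −0.68). The part of these cells in the member values was not tested. At an unadjusted p under 0.05 there was 1 member higher, *Ms4a7*, and 0 lower, against 6.23% of all genes higher and 6.62% lower. *Ms4a7* was at 7.36 and 7.72 CPM in controls and 9.43, 9.01 and 10.1 CPM in βiKO mice, a log2 difference of 0.34 (SE 0.14). In 6 members each βiKO mouse was above each control, a share close to the 15.9% of all genes, and in 0 each was below, against 16.7%. The defining markers overlapped between the groups, with *Adgre1* at 11.2 and 10.3 CPM in controls against 10.5, 11.8 and 15.1, *Csf1r* at 13.3 and 14.1 against 10.02, 14.0 and 13.9, and *C1qa* at 62.0 and 56.8 against 57.9, 54.2 and 71.1.

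The third βiKO mouse stood apart. It was the highest of its group in 30 of the 37 members, with 155 CPM of *Cd74* against 72.7 and 82.9, and 83.3 CPM of *H2-Ab1* against 38.8 and 39.7 in the other βiKO mice. Its B- and plasma-cell markers summed to 151 CPM, against 7.83 and 24.6 CPM, with 18.9 CPM of *Ms4a1*, and *Ptprc* was at 41.4 CPM, against 15.1 and 17.5. The controls also differed in these markers, at 79.4 and 10.4 CPM. Without the third mouse the log2 difference of *H2-Aa*, 0.30 (SE 0.17), was 0.10, and that of *Lyz2* was 0.12. The part of these B-cell markers in the result was not tested.

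Lists of genes that act around macrophages were read beside the members. Of 11 myeloid growth factors and receptors 6 were tested in the R192H table and 0 were called by edgeR in any of the 6 comparisons, with summed levels of 14.6 to 31.0 CPM over all its mice. *Csf1*, the main macrophage growth factor, was at 4.14 to 7.19 CPM in wildtype SCD mice and 3.59 to 5.26 CPM in R192H SCD mice. On HFD it was at 6.16, 3.21 and 5.99 CPM in wildtype and 3.04, 2.90 and 2.47 CPM in R192H mice, without overlap, a pattern that 9.89% of all genes showed in that direction, and it was not called by edgeR or DESeq2. Of 21 monocyte chemokines and receptors 16 were tested there and 0 called by edgeR in any comparison, though their median was −1.30 for R192H on SCD and −1.33 for HFD in wildtype mice. Of 25 inflammatory and inflammasome genes, 19 of them tested, *Il1r2*, the decoy receptor for IL-1, rose in R192H HFD mice against wildtype HFD (1.2, SE 0.26) and against R192H SCD (1.01, SE 0.26), and *Pycard* (−0.85, SE 0.24) and *Gsdmd* (−0.95, SE 0.28) fell in the latter, where 15.7% of all genes were called. Among 14 other genes of class II antigen presentation, 13 of them tested, *Lgmn*, a lysosomal protease, rose with HFD in R192H mice (0.58, SE 0.17), where 9.75% of all genes were called higher. Of 20 complement and phagocytosis genes, 17 of them tested, *Sirpa*, also made by β cells and neurons, was lower in R192H than wildtype on HFD (−0.65, SE 0.13) and *C4b* fell with HFD in R192H mice (−1.86, SE 0.57), where 0.82% and 5.91% of all genes were called lower.

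Of 18 genes known from lipid-associated macrophages 3 rose and 2 fell with HFD in R192H mice, beside 9.75% of all genes higher and 5.91% lower, and the 3 with the lowest p were *Pld3* (0.94, SE 0.11), *Lpl* (−1.77, SE 0.27) and *Ctsd* (0.70, SE 0.16). *Pld3* was also higher in R192H than wildtype mice on HFD (0.53, SE 0.11). Among 13 myeloid transcription factors *Cebpb* rose (0.88, SE 0.23) and *Runx1* fell (−2.27, SE 0.72) with HFD in R192H mice, against the same shares of all genes. Many of these genes are also expressed by endocrine, stromal or endothelial cells, and in those comparisons 0 members were called. With edgeR none of these 7 lists had a call in R192H against wildtype on SCD, in HFD against SCD in wildtype mice, in the interaction or in βiKO against control. DESeq2 made calls in all 4 of these comparisons, where it called 0.102%, 1.9%, 0.53% and 1.29% of all genes lower and 0.0242%, 0.946%, 1.12% and 0.867% higher, in the order given. For HFD in wildtype mice it called 5 complement and phagocytosis genes, 3 inflammatory genes, 3 transcription factors, 2 chemokine genes, 1 growth factor gene and 1 class II gene lower, and 1 lipid-associated gene lower and 1 higher. For R192H on SCD it called 1 chemokine and 1 complement gene lower, in the interaction 2 complement genes and 1 class II gene higher, and in βiKO against control 1 complement and 1 lipid-associated gene higher.

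The remaining cell type marker lists had 0 calls by edgeR in R192H against wildtype on SCD and in HFD against SCD in wildtype mice. DESeq2 called 2 B-cell, 1 lymph node stroma and 1 dendritic marker lower for R192H on SCD. For HFD in wildtype mice it called 5 stromal, 3 B-cell and 1 dendritic marker lower and 1 neutrophil and 2 endocrine markers higher. Neutrophil markers summed to 0 to 6.37 CPM, T- and NK-cell markers to 0.687 to 5.62 CPM, dendritic cell markers to 4.11 to 8.25 CPM and mast cell markers to 1.21 to 4.66 CPM per mouse in the R192H table. Adipocyte markers summed to 4.69 to 7.86 CPM, stromal markers to 120 to 445 CPM and endothelial and lymphatic markers to 221 to 325 CPM. For HFD against SCD in R192H mice, where 9.75% of all genes were called higher and 5.91% lower by edgeR, calls were made for 24 of 27 acinar markers, all higher, and for 2 of 12 tested B- and plasma-cell markers, 2 of 5 lymph node stroma markers, 2 of 9 duct markers, 1 of 14 endothelial and 1 of 5 erythroid markers, all higher, and for 5 higher and 2 lower of 17 islet endocrine markers. In R192H against wildtype on HFD, 1 lymph node stroma marker (*Clu*, 0.87, SE 0.15) and 1 endocrine marker were higher and 2 endocrine markers lower. Their part in the values of the members was not tested.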

How the data were processed

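Islet RNA was extracted with TRIzol, and stranded total RNA libraries were sequenced as paired ends. The authors deposited estimated counts per gene, not normalized, made with STAR 2.7.1 and RSEM 1.3.3 on mm10 per the submitters' processing notes. Whether counting used strand is not given in the sources used here. The deposited expected counts were rounded to whole numbers. Genes were kept by edgeR 4.0.16 (filterByExpr, minimum count 10, R 4.3.3), which left 19137 and 20167 genes, scaled by TMM and tested in each table separately with 1 coefficient per group and the quasi-likelihood test, with Benjamini-Hochberg adjustment over all genes tested. A call needed an adjusted p under 0.05 and an absolute log2 fold change over 0.5. SE is the absolute log2 fold change over the square root of F. DESeq2 1.42.0 was an alternative, and calls are edgeR's where no tool is named. Symbols and positions came from GENCODE M21, and 65.8% and 66.7% of identifiers matched. The mouse is the replicate. The 37 members, their roles and the other lists were chosen with earlier results of these data known. Named in full were the called members and 10 defining genes, and any other gene with values was named after its values were seen. For the other lists, the called genes with the lowest p were named, at most 3 per list. Alternatives were other size factors, other filters, the replicate number as a block, only the groups compared, an acinar covariate, leaving out the 2 largest genes and leaving out each mouse.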

Additional observations from a re-analysis of the deposited data

How the results depend on the processing

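The number of members called depended on the processing. For R192H against wildtype on SCD it was 0, but 4 with no filter on low counts and 1 with DESeq2. For the interaction it was 0, but 4 with no filter, 1 with at least 10 counts in every mouse, 1 with DESeq2 and 0 to 1 when a mouse was left out, the 1 being *Lyz2* without the second wildtype SCD or the second wildtype HFD mouse. For HFD in wildtype mice it was 2, but 9 with no filter, 7 with DESeq2, 3 with at least 10 counts in every mouse, 3 without the 2 largest genes, 1 with the acinar covariate, 0 with only the 2 groups in the model and 0 to 2 when a mouse was left out, with 0 without the third wildtype HFD mouse. Over all genes these last 3 settings gave 44, 1 and, without that mouse, 5 calls, against 71. For βiKO against control it was 0, but 1 with no filter and 1, *Lyz1*, with the replicate block, which raised the calls over all genes from 18 to 88. The causes were not tested. Over all genes DESeq2 called 26, 318, 547 and 249 in these 4 comparisons, in this order, where edgeR called 0, 25, 71 and 18. With no filter edgeR called 261, 708, 924 and 697. For R192H against wildtype on HFD, where 0 members were called throughout, all genes gave 437 calls with edgeR, 947 with DESeq2, 1279 with no filter, 147 with the replicate block, 0 with the acinar covariate and 93 to 498 without 1 mouse. For HFD in R192H mice they gave 2996 with edgeR, 101 with the acinar covariate and 1706 to 2248 without 1 mouse.

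The 18 correlations of same-numbered mice in the R192H table ran from −0.30 to 0.19 and 5 were above 0.1. Mice of different numbers were not compared, so these values do not decide whether the replicate number marks a batch. With the replicate block, 2 members, *Lyz2* and *Mrc1*, were called for HFD in wildtype mice, and *H2-Aa* had an adjusted p of 0.122 (edgeR). Its adjusted p was 0.119 with only the 2 groups and 0.0672 with the acinar covariate. For HFD in R192H mice the *Lyz2* difference was −0.0044 with at least 10 counts in every mouse, −0.0055 with the replicate block, −0.31 with the acinar covariate and −0.14 to 0.30 without 1 mouse, and that of *H2-Aa* was −0.22 to 0.12 without 1 mouse. Without 1 mouse *Cd68* ran from −0.69 to 0.042 for R192H on SCD and *Itgax* from −0.33 to 0.086 for HFD in wildtype mice. Of 1003 values of named and other members, 918 kept their direction and side of the threshold and 51 changed sign, with main log2 differences of at most 0.338. At this depth members under 1 CPM rest on few reads.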
